A study of Mus musculus with 9 samples.

Results

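The lysosomal genes described here are 45 genes chosen by symbol: 10 cathepsins and other proteases, 8 genes of lipid breakdown and sterol export, 10 glycosidases and sulfatases, 8 genes for membrane proteins, channels and progranulin, and 9 genes for the proton pump. All 45 were found among the 56775 genes of the deposited tables, and all 45 were among the 14704 genes with enough reads to test. The rule names symbols alone and uses no measured value. RNA was sequenced from cultures of mouse bone marrow-derived macrophages, phagocytes grown for 7 days from marrow of the femur in medium with 15% supernatant of L-929, a fibroblast line that secretes the macrophage growth factor M-CSF. There were 3 groups of 3 libraries. The first was MKP5-/- cells given oxidized low-density lipoprotein (ox-LDL), the modified lipoprotein that loads macrophages with cholesterol, at 20 µg/mL for 24 h. The second was wild-type (WT) cells given the same dose for 24 h, and the third was WT cells at 0 h, with no ox-LDL. All cells had the C57BL/6 background. MKP5 is a dual-specificity phosphatase that removes phosphate from the stress-activated MAP kinases p38 and JNK. The labels do not describe the MKP5-/- allele or the age of the mice, nor whether the 3 libraries of a group came from separate animals or cultures, so p-values measure the spread between these libraries only, and that spread may be technical. MKP5-/- cells at 0 h, and cells of either genotype cultured 24 h longer with no ox-LDL, were not analysed here. The comparison of WT cells at 24 h with WT cells at 0 h thus joins ox-LDL to a longer culture, and the genotype was compared in treated cells alone.

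Lysosomes are the acidic compartments in which macrophages digest what they engulf. A membrane-bound proton pump, the V-ATPase, acidifies them; soluble hydrolases break down protein, lipid and sugar chains; and membrane proteins protect the limiting membrane and carry the products out. Lipoprotein cholesteryl ester is split there by acid lipase, and the freed cholesterol leaves through NPC2 and NPC1. Many of these genes carry in their promoters a short E-box-like element that factors of the MiT/TFE family, TFEB among them, bind in mammalian cells.

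Dusp10, the gene for MKP5, had 4, 6 and 4 reads in the MKP5-/- libraries, against 43, 38 and 40 in WT cells at 24 h and 41, 48 and 44 in WT cells at 0 h. Every MKP5-/- library was thus below every WT library. The libraries held between 11139776 and 19875773 reads, with all MKP5-/- libraries below all WT libraries. Between 48 and 238364 reads per library fell on a lysosomal gene. All 10 macrophage markers checked were present, with a summed level of 8002 to 9167 RPKM (reads per kilobase of exon, scaled to library size) in MKP5-/- cells, 11743 to 13602 in WT cells at 24 h and 4582 to 4865 in WT cells at 0 h. The 10 neutrophil and precursor markers summed to 0.616 to 0.984 RPKM in MKP5-/- cells, 0.378 to 0.882 in WT cells at 24 h and 113 to 124 in WT cells at 0 h, and Camp, Elane, Retnlg and Ly6g had no reads at 24 h in either genotype. For 9 fibroblast markers the ranges were 3.27 to 6.53, 11.4 to 13.8 and 1.88 to 2.49 RPKM in the same order of groups, and for 8 osteoclast markers 72.1 to 79.0, 23.3 to 28.5 and 14.0 to 16.0 RPKM. The sums do not describe each marker. By the test given below, 1 of 10 macrophage markers was higher and 4 lower in MKP5-/- than in WT cells at 24 h. Their median log2 fold change was 0.12. Of 7 fibroblast markers tested, 1 was higher and 5 lower there, and of 6 osteoclast markers tested, 4 were higher and 1 lower. Among all tested genes 11.8% were higher and 17% lower. The part of these marker shifts in the results on lysosomal genes was not tested. In RNA from whole cultures, fewer cells of a type and less RNA per cell cannot be told apart.

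Lysosomal genes were among the most abundant transcripts of all 3 groups. The 45 genes together drew 5.34, 5.61 and 5.60% of all reads in MKP5-/- cells, 5.06, 4.92 and 5.27% in WT cells at 24 h and 5.15, 5.21 and 5.13% in WT cells at 0 h. By this share the MKP5-/- libraries lay above both WT groups, which overlapped each other. The summed RPKM of the 45 genes, on the scaled libraries, overlapped between all 3 groups. It was 12772, 14361 and 14372 in MKP5-/- cells and 12407, 12133 and 13384 in WT cells at 24 h. In WT cells at 0 h it was 12726, 13295 and 12967. On the per-length scale the same 9 genes ranked among the 100 highest of all genes in every group: Psap, Ctsd, Ctsb, Grn, Ctss, Lamp1, Ctsz, Hexa and Laptm5. Psap, which encodes the precursor of the saposins that present sphingolipids to their hydrolases, averaged 2576 ± 229 RPKM in MKP5-/- cells, 2246 ± 262 in WT cells at 24 h and 2954 ± 78.8 in WT cells at 0 h (SD, n = 3 each). Ctsd, the main aspartic protease of lysosomes, averaged 2547 ± 198, 2366 ± 75.0 and 2089.8 ± 66.0 RPKM in the same groups. At 24 h Psap and Ctsd lay within 1 SD of each other in both genotypes, so their order there cannot be told, whereas in WT cells at 0 h Psap was above Ctsd in each library. The lowest of the 45 was Ctsf, a cysteine protease, at 3.20 ± 0.328, 4.24 ± 1.05 and 0.552 ± 0.0526 RPKM. The median lysosomal gene stood at 72.9 RPKM in MKP5-/- cells, 75.4 in WT cells at 24 h and 71.5 in WT cells at 0 h.

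**Figure D1:**
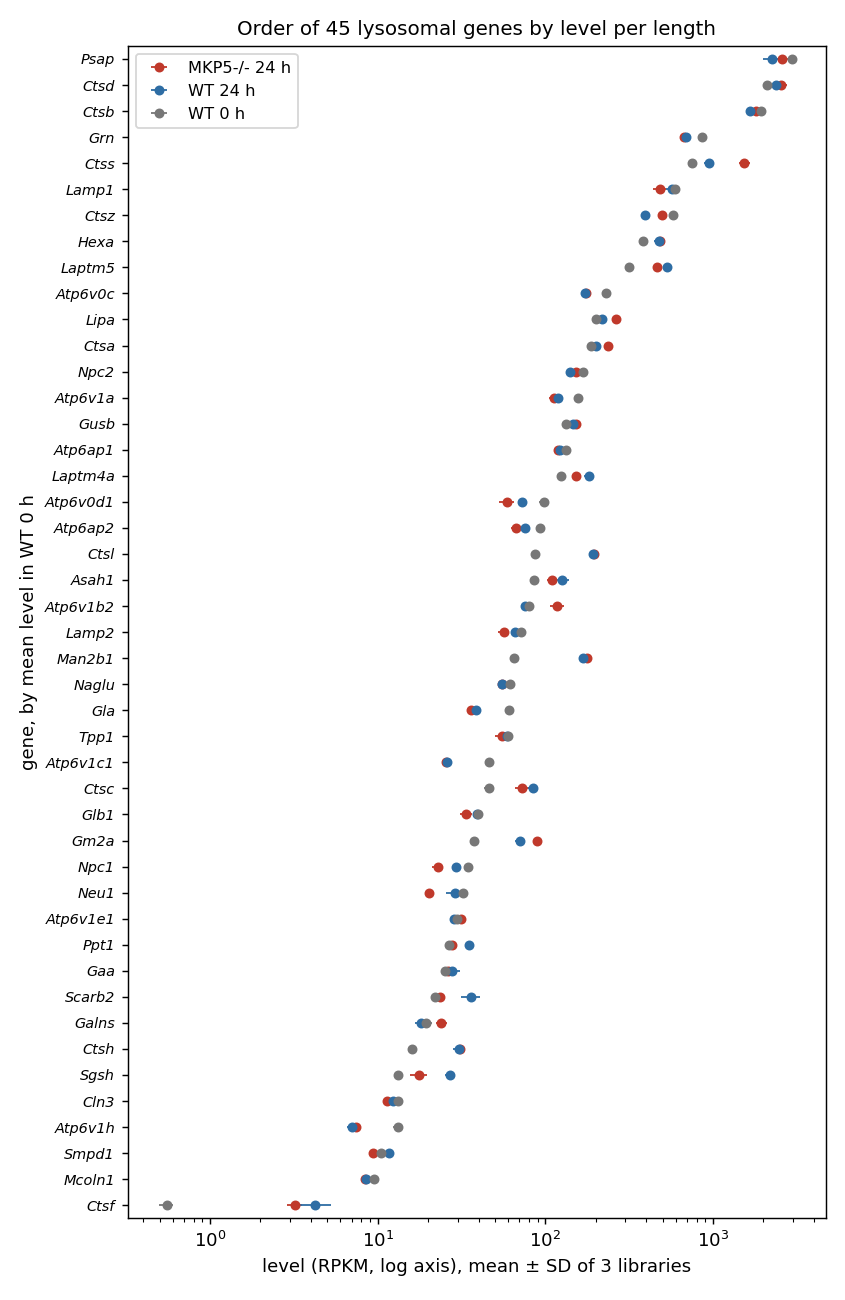
Mean level of each of the 45 lysosomal genes in RPKM on a log axis, ordered by the level in WT cells at 0 h; points are means of 3 libraries per group (MKP5-/- 24 h, WT 24 h, WT 0 h) and bars 1 SD. Levels run from 0.552 RPKM for Ctsf to 2954 RPKM for Psap in WT cells at 0 h, and the groups lie apart most widely for Ctsf.

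The promoters of 6 lysosomal genes are shown because they hold, or lack, the E-box core CACGTG, which is the same on both strands. Lamp1 carries it 4 times, the most of the 45 genes that have a window, Sgsh and Gla carry it and were called in opposite directions at 24 h, and Atp6v0d1 is a pump gene that carries it. Neither Ctss, the gene with the smallest adjusted p of the genotype comparison, nor Man2b1, the gene with the smallest in the WT time comparison, carries it. The windows are RefSeq's, on build GRCm38.p6, and run from 250 bases before to 50 bases after an annotated start, 5′ to 3′ on the gene's strand, with each core in capitals. They lie at chr8:13158911-13159210 (plus strand) for Lamp1, chr11:119355461-119355760 (minus strand) for Sgsh, chrX:134600956-134601255 (minus strand) for Gla, chr8:105566015-105566314 (minus strand) for Atp6v0d1, chr3:95526536-95526835 (plus strand) for Ctss and chr8:85083019-85083318 (plus strand) for Man2b1.
Lamp1: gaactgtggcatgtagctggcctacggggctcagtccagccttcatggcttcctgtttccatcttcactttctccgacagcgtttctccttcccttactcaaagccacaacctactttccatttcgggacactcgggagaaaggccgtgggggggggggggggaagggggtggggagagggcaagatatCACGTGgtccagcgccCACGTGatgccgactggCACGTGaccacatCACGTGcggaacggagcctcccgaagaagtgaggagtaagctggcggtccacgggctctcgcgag
Sgsh: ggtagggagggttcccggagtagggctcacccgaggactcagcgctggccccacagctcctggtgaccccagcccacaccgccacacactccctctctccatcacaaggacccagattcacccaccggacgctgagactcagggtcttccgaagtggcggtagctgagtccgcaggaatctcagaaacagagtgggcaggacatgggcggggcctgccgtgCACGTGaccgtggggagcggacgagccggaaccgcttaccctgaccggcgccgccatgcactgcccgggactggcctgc
Gla: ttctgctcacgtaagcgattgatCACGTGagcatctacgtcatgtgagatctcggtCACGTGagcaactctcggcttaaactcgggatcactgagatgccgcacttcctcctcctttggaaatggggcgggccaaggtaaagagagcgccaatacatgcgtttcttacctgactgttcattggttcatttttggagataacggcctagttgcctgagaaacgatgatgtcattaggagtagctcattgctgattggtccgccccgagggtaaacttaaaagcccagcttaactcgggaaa
Atp6v0d1: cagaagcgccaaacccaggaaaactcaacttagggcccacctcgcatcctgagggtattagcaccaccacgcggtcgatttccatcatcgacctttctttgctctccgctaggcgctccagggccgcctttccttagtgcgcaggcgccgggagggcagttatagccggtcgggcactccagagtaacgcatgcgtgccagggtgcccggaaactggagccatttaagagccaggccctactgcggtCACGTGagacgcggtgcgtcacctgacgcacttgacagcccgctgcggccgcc
Ctss: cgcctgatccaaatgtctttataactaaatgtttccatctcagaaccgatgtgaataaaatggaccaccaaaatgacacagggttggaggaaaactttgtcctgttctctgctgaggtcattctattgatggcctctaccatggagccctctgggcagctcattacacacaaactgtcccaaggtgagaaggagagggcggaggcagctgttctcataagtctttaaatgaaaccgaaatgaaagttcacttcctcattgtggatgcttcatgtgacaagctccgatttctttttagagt
Man2b1: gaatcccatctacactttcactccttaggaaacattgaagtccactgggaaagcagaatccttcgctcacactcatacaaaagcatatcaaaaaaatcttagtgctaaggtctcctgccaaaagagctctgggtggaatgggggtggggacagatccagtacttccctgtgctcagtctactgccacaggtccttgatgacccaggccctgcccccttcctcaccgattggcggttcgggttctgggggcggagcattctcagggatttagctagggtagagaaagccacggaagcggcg

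A window was found for 37 of the 45 genes, and the core stood in a window of 14 of these, 37.8%. In the same table it stood in a window of 11.6% of the tested genes and of 8.09% of all 27025 genes. The longer forms TCACGTG and CACGTGA, which contain the core, were held by 12 of the 37 genes, 32.4%, against 6.89% of tested genes and 4.29% of all genes. By role, the core was found for 4 of 8 proteases (Ctsa, Ctsd, Ctsf and Ctsl), 5 of 9 glycosidases and sulfatases (Glb1, Gaa, Gla, Naglu and Sgsh), 3 of 8 membrane protein genes (Lamp1, Cln3 and Mcoln1) and 2 of 6 pump genes (Atp6v0d1 and Atp6v1a). It was found for 0 of 6 genes of lipid breakdown and sterol export. Median GC content was 58.0% for the windows of lysosomal genes and 60.3% for those of tested genes. These are counts of letters in a window, not of bound sites.

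After 24 h with ox-LDL, WT cells had more RNA for several hydrolases and less for most pump subunits. Of the 45 genes, 16 were higher and 16 lower than in WT cells at 0 h, and 13 did not pass the test (limma, Benjamini-Hochberg adjusted p under 0.05 over all tested genes). Of all tested genes 55.7% were called in this comparison, 27.5% higher and 28.2% lower. The 3 libraries of one group lay wholly to one side of the 3 of the other for 36 of the 45 genes, against 64.2% of all tested genes. The median log2 difference (log2 fold change) was -0.06 over the 45 genes and 0.00 over all tested genes. Ctsf, Man2b1, Ctsl and Sgsh were called at 2-fold or more higher, and none was called at 2-fold or more lower. Among all tested genes 17.0% were called at 2-fold or more in either direction. The median size of the log2 difference, whatever its sign, was 0.31 over the 45 genes and 0.40 over all tested genes. Proteases were 6 higher and 2 lower of 10, and the lipid group 3 and 3 of 8. Glycosidases and sulfatases were 4 higher and 2 lower of 10, membrane protein genes 3 and 2 of 8, and pump genes 0 and 7 of 9.

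Between the genotypes at 24 h the differences were smaller. Of the 45 genes, 7 were higher and 13 lower in MKP5-/- cells than in WT cells, and 25 did not pass the test. Of all tested genes 28.8% were called in this comparison, 11.8% higher and 17% lower. For 25 of the 45 genes the 2 groups were fully apart, against 45% of all tested genes, and the medians were -0.03 over the 45 genes and -0.05 over all tested genes. The log2 differences ran from -0.63 for Sgsh to 0.70 for Ctss, and none was as large as 2-fold. Among all tested genes 5.57% were called at 2-fold or more in either direction. The median size of the log2 difference, whatever its sign, was 0.19 over the 45 genes and 0.23 over all tested genes. Proteases were 3 higher and 0 lower of 10, the lipid group 2 and 3 of 8, glycosidases and sulfatases 1 and 3 of 10, membrane protein genes 0 and 5 of 8, and pump genes 1 and 2 of 9. This split moved with the scaling: it was 14 higher and 9 lower with upper-quartile factors and 12 higher and 12 lower with relative log expression factors. By role, proteases were 5 higher with each of these scalings and without MKP5-/- replicate 1. The lipid group was 4 higher with each of these scalings, and glycosidases and sulfatases 3 higher with upper-quartile factors. Without MKP5-/- replicate 1, which had the lowest level of its group for 43 of the 45 genes, the split over all 45 was 11 higher and 9 lower. Without WT 24 h replicate 2 it was 7 higher and 11 lower, and 1660 of all tested genes were called lower in place of 2496. The WT libraries at 24 h serve in both comparisons, so these differences are not independent.

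**Figure D2:**
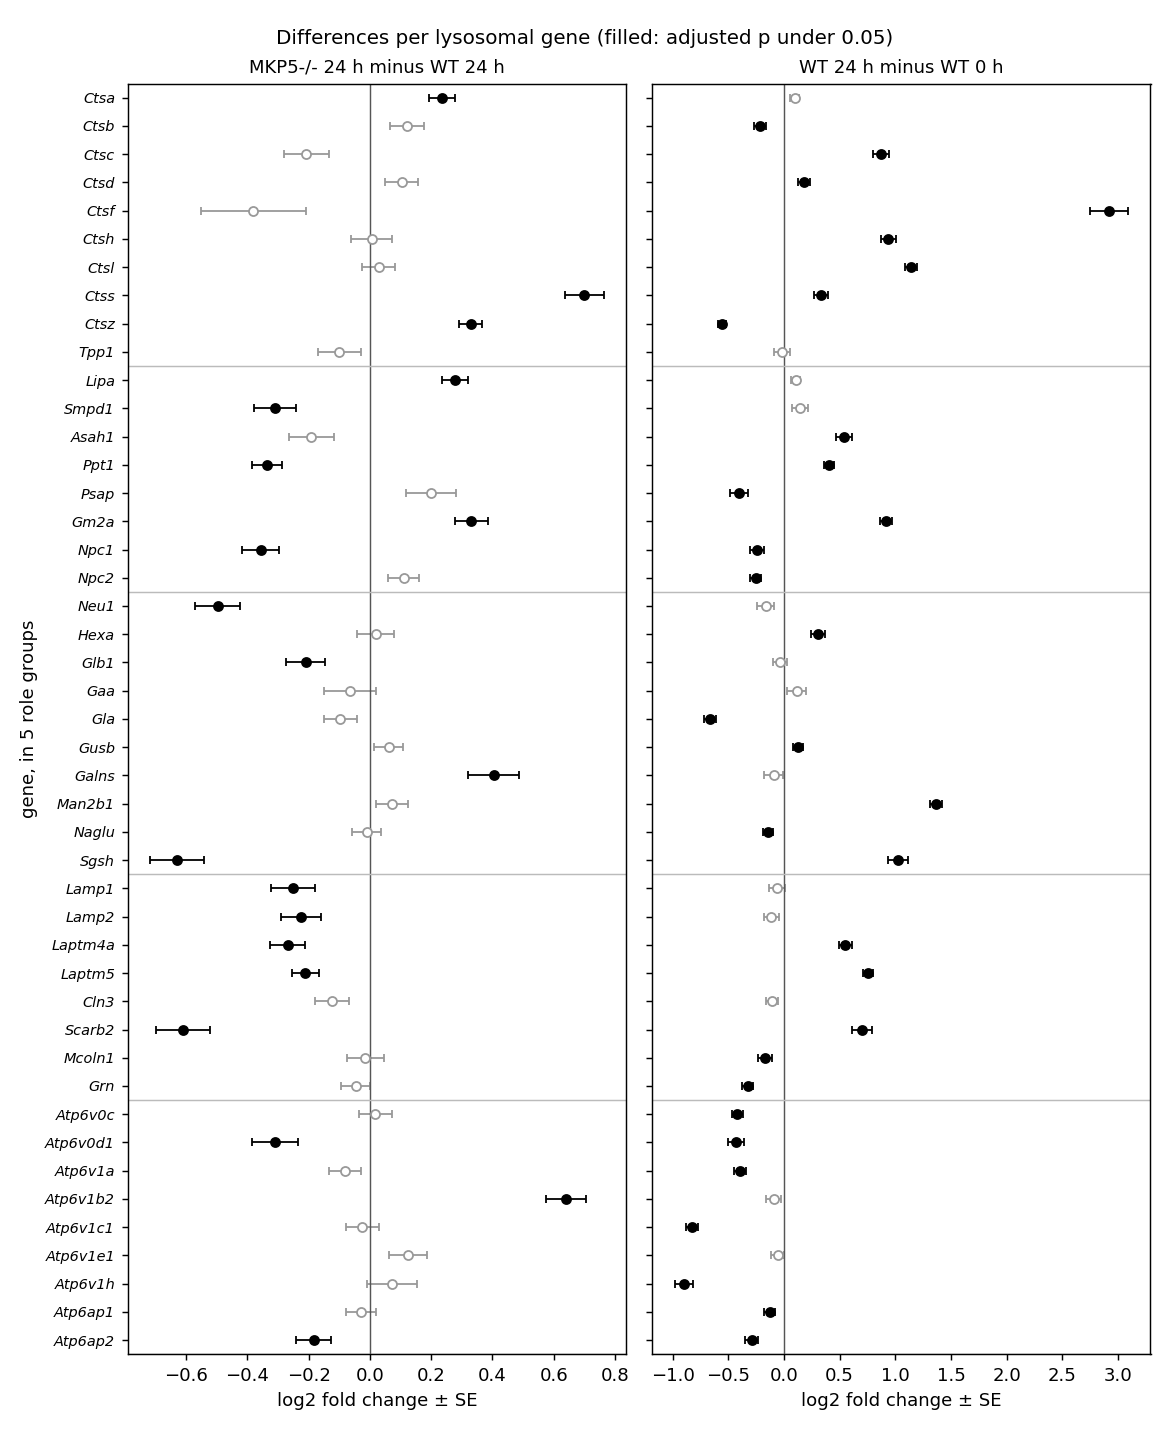
Log2 fold change ± SE of the 45 lysosomal genes in 5 role groups, for MKP5-/- 24 h minus WT 24 h (left) and WT 24 h minus WT 0 h (right); filled points have an adjusted p under 0.05. The axes differ: values run from -0.63 to 0.70 between the genotypes and from -0.90 to 2.92 between 24 h and 0 h.

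Among the proteases, the largest time differences were those of 4 cysteine proteases. Ctsl, a cysteine endopeptidase, had 183, 204 and 199.6 RPKM in MKP5-/- cells, 198, 181 and 197 in WT cells at 24 h and 84.1, 91.0 and 85.7 in WT cells at 0 h. Both 24 h groups overlapped each other and lay above every 0 h library. Ctsl rose 2.21-fold in WT cells at 24 h (log2 difference 1.14, SE 0.055, adjusted p = 2.43e-08), with no genotype difference past the threshold (0.03, adjusted p = 0.727). Ctsf, also an endopeptidase, had 2.99, 3.58 and 3.04 RPKM in MKP5-/- cells, 3.63, 3.63 and 5.45 in WT cells at 24 h and 0.598, 0.495 and 0.563 in WT cells at 0 h. It rose 7.55-fold at 24 h in WT cells (log2 difference 2.92, SE 0.172, adjusted p = 1.05e-07), and WT replicate 3 stood above the other 24 h libraries. Ctsh, an aminopeptidase, had 32.2, 31.4 and 28.8 RPKM in MKP5-/- cells, 31.2, 27.9 and 33.1 in WT cells at 24 h and 16.0, 16.0 and 16.0 in WT cells at 0 h. Its 3 libraries at 0 h were nearly equal, and it rose 1.92-fold in WT cells at 24 h (log2 difference 0.94, SE 0.067, adjusted p = 4.69e-07); between the genotypes it was the least changed of the 45 (log2 difference 0.01, adjusted p = 0.952). Ctsc, the dipeptidyl peptidase that activates serine proteases of granules, also rose at 24 h in WT cells, 84.0 ± 4.75 against 45.9 ± 3.03 RPKM (SD, n = 3 each; log2 difference 0.87, SE 0.074, adjusted p = 1.81e-06).

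Ctss, the endopeptidase that trims the invariant chain of MHC class II molecules, had 1436, 1660.0 and 1523 RPKM in MKP5-/- cells, 994, 874 and 976 in WT cells at 24 h and 754, 720.4 and 783 in WT cells at 0 h. The MKP5-/- libraries lay above all others, and those of WT cells at 24 h above those at 0 h. Ctss was 1.62-fold higher in MKP5-/- than in WT cells at 24 h (log2 difference 0.70, SE 0.063, adjusted p = 3.63e-05), and 1.26-fold higher in WT cells at 24 h than at 0 h (log2 difference 0.33, SE 0.063, adjusted p = 0.000874). Ctsz, a carboxypeptidase, had 481, 501 and 499.7 RPKM in MKP5-/- cells, 394, 382 and 404 in WT cells at 24 h and 582, 585 and 569 in WT cells at 0 h. No library of one group reached those of another. Ctsz was 1.26-fold higher in MKP5-/- than in WT cells at 24 h (log2 difference 0.33, SE 0.038, adjusted p = 0.000163) but 1.47-fold lower in WT cells at 24 h than at 0 h (log2 difference -0.56, SE 0.038, adjusted p = 2.86e-07), so that the MKP5-/- level was between the WT levels. Ctsa, a carboxypeptidase that also stabilises the enzymes of Neu1 and Glb1 in a complex, was higher in MKP5-/- than in WT cells at 24 h, 237 ± 10.6 against 201 ± 0.967 RPKM (SD, n = 3 each; log2 difference 0.24, SE 0.043, adjusted p = 0.00247). Ctsb, a cysteine protease with the most reads of the 45 genes, averaged 1811 ± 136 RPKM in MKP5-/- cells, 1664 ± 78.2 in WT cells at 24 h and 1932 ± 41.6 in WT cells at 0 h (SD, n = 3 each). It was lower at 24 h in WT cells (log2 difference -0.22, SE 0.055, adjusted p = 0.00574), and Ctsd was higher (log2 difference 0.18, SE 0.054, adjusted p = 0.015); the Ctsd call was lost without WT 0 h replicate 1 and with the trend and robust options off. Tpp1, a tripeptidyl peptidase, had 49.3, 56.7 and 59.7 RPKM in MKP5-/- cells, 56.1, 57.8 and 63.3 in WT cells at 24 h and 60.01, 58.4 and 60.6 in WT cells at 0 h. The 3 groups overlapped, and Tpp1 was the least changed of the 45 between 24 h and 0 h (log2 difference -0.02, adjusted p = 0.864).

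Set against Ctsb within a library, the ratio of RPKM values of Ctss to Ctsb was 0.868, 0.876 and 0.808 in MKP5-/- cells, 0.600, 0.550 and 0.559 in WT cells at 24 h and 0.398, 0.364 and 0.407 in WT cells at 0 h. The groups did not overlap. For Ctsl to Ctsb the ratio was 0.108 ± 0.00252 in MKP5-/- cells, 0.115 ± 0.00337 in WT cells at 24 h and 0.0450 ± 0.000899 in WT cells at 0 h (SD, n = 3 each). A ratio within a library does not depend on its scaling.

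**Figure D3:**
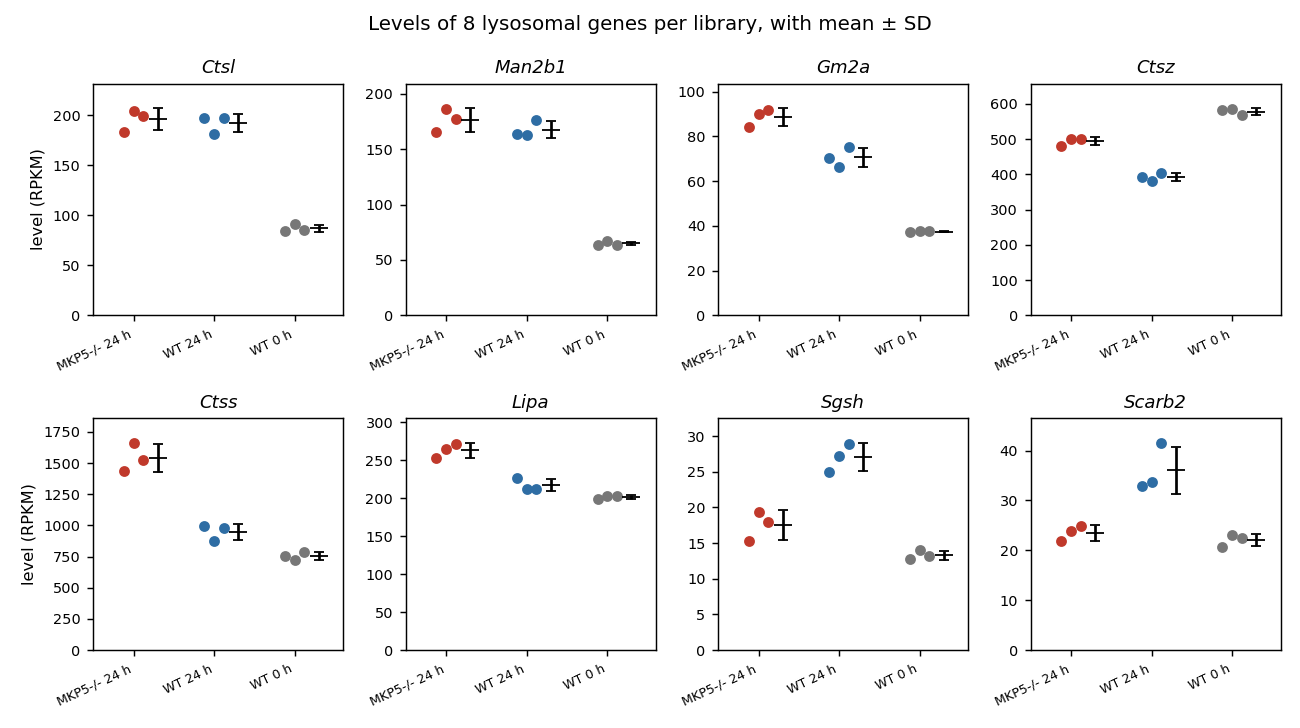
Level in RPKM of 8 lysosomal genes in each library, with the mean and SD of 3 libraries beside the points, for MKP5-/- 24 h, WT 24 h and WT 0 h. Ctsl and Man2b1 have both 24 h groups together above the 0 h group, Ctss is highest in MKP5-/- cells, and Sgsh and Scarb2 are highest in WT cells at 24 h.

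In the group of lipid breakdown and sterol export, the largest time difference in WT cells was in Gm2a. This gene encodes the activator protein that lifts GM2 ganglioside to its hydrolase. It had 84.4, 89.9 and 91.8 RPKM in MKP5-/- cells, 70.5, 66.2 and 75.1 in WT cells at 24 h and 37.3, 37.5 and 37.6 in WT cells at 0 h. Every MKP5-/- library was above every WT library at 24 h, and these above every library at 0 h. Gm2a was 1.26-fold higher in MKP5-/- than in WT cells at 24 h (log2 difference 0.33, SE 0.054, adjusted p = 0.00133) and 1.88-fold higher in WT cells at 24 h than at 0 h (log2 difference 0.91, SE 0.054, adjusted p = 1.04e-07). Lipa, the acid lipase that splits cholesteryl esters and triglycerides taken up with lipoprotein, had 253, 264 and 272 RPKM in MKP5-/- cells, 226, 212 and 212 in WT cells at 24 h and 198, 203 and 202 in WT cells at 0 h. It was 1.21-fold higher in MKP5-/- than in WT cells at 24 h (log2 difference 0.28, SE 0.043, adjusted p = 0.00098). WT libraries at 24 h also lay above those at 0 h for Lipa, but that difference did not pass the test (log2 difference 0.11, SE 0.043, adjusted p = 0.0561), and it passed in 5 of the 18 alternative settings.

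Of the other 6 genes of this group, 3 were lower in MKP5-/- than in WT cells at 24 h and 3 did not pass the test. Npc1, the membrane transporter that exports cholesterol, had 21.3, 22.6 and 24.8 RPKM in MKP5-/- cells, 28.4, 29.1 and 30.2 in WT cells at 24 h and 34.3, 33.7 and 35.6 in WT cells at 0 h. MKP5-/- cells had the lowest levels and WT cells at 0 h the highest, with no overlap. Npc1 was 1.28-fold lower in MKP5-/- than in WT cells at 24 h (log2 difference -0.36, SE 0.061, adjusted p = 0.00174) and 1.18-fold lower in WT cells at 24 h than at 0 h (log2 difference -0.24, SE 0.061, adjusted p = 0.00559). Npc2, the soluble carrier that hands cholesterol to NPC1, was lower at 24 h in WT cells (log2 difference -0.25, SE 0.050, adjusted p = 0.00119), with no call between the genotypes (0.11, adjusted p = 0.122). Its level averaged 152 ± 8.52 RPKM in MKP5-/- cells, 141 ± 4.62 in WT cells at 24 h and 168 ± 5.90 in WT cells at 0 h (SD, n = 3 each). Ppt1, which removes palmitate from proteins, had 27.2, 27.6 and 28.6 RPKM in MKP5-/- cells, 35.1, 33.9 and 36.3 in WT cells at 24 h and 27.3, 26.1 and 26.1 in WT cells at 0 h. WT cells at 24 h stood above both other groups, which overlapped. Ppt1 was 1.26-fold lower in MKP5-/- than in WT cells at 24 h (log2 difference -0.34, SE 0.048, adjusted p = 0.000604) and 1.32-fold higher in WT cells at 24 h than at 0 h (log2 difference 0.40, SE 0.048, adjusted p = 2.52e-05). Smpd1, acid sphingomyelinase, averaged 9.39 ± 0.528 RPKM in MKP5-/- and 11.6 ± 0.762 in WT cells at 24 h (SD, n = 3 each; log2 difference -0.31, SE 0.069, adjusted p = 0.00722). Asah1, acid ceramidase, averaged 109 ± 7.29 RPKM in MKP5-/- cells, 125 ± 13.1 in WT cells at 24 h and 85.8 ± 3.07 in WT cells at 0 h (SD, n = 3 each). It rose in WT cells at 24 h (log2 difference 0.54, SE 0.073, adjusted p = 8.02e-05), and Psap fell (log2 difference -0.40, SE 0.082, adjusted p = 0.00168); neither passed the genotype test (-0.19, adjusted p = 0.0726 for Asah1 and 0.20, adjusted p = 0.0914 for Psap). Psap passed it in 4 of the 18 alternative settings and Asah1 in 2.

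Among glycosidases and sulfatases, Man2b1, acid alpha-mannosidase, had 165, 186 and 177 RPKM in MKP5-/- cells, 163, 163 and 177 in WT cells at 24 h and 63.9, 66.8 and 63.9 in WT cells at 0 h. Both 24 h groups overlapped each other above the 0 h libraries. Man2b1 rose 2.58-fold at 24 h in WT cells (log2 difference 1.37, SE 0.053, adjusted p = 6.06e-09), the smallest adjusted p of the 45 genes in that comparison, and did not pass the test between the genotypes (0.07, adjusted p = 0.33). Sgsh, which removes sulfate from heparan sulfate, had 15.3, 19.3 and 18.0 RPKM in MKP5-/- cells, 25.03, 27.2 and 28.9 in WT cells at 24 h and 12.7, 14.0 and 13.1 in WT cells at 0 h. The groups did not overlap: WT cells at 24 h were highest and WT cells at 0 h lowest. Sgsh was 1.55-fold lower in MKP5-/- than in WT cells at 24 h (log2 difference -0.63, SE 0.087, adjusted p = 0.000497) and 2.03-fold higher in WT cells at 24 h than at 0 h (log2 difference 1.02, SE 0.087, adjusted p = 1.75e-06). Gla, alpha-galactosidase A, had 34.4, 37.8 and 36.3 RPKM in MKP5-/- cells, 39.4, 38.0 and 38.5 in WT cells at 24 h and 58.2, 64.8 and 60.2 in WT cells at 0 h. All 24 h libraries of both genotypes were below all 0 h libraries, and Gla was 1.58-fold lower in WT cells at 24 h (log2 difference -0.66, SE 0.054, adjusted p = 1.37e-06). Neu1, the sialidase, had 19.3, 20.2 and 21.5 RPKM in MKP5-/- cells, 26.3, 27.9 and 32.1 in WT cells at 24 h and 31.2, 33.4 and 31.6 in WT cells at 0 h. It was 1.41-fold lower in MKP5-/- than in WT cells at 24 h (log2 difference -0.50, SE 0.074, adjusted p = 0.000802), while the WT groups overlapped.

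Galns, a sulfatase of keratan sulfate, was the one member of this group higher in MKP5-/- than in WT cells at 24 h, 24.0 ± 1.79 against 18.1 ± 1.35 RPKM (SD, n = 3 each; log2 difference 0.40, SE 0.082, adjusted p = 0.00462). Glb1, beta-galactosidase, had 30.9, 34.3 and 36.1 RPKM in MKP5-/- cells, 36.6, 39.4 and 40.9 in WT cells at 24 h and 40.2, 39.7 and 39.4 in WT cells at 0 h. It was called 1.16-fold lower in MKP5-/- cells (log2 difference -0.21, SE 0.063, adjusted p = 0.0306), a call lost in 8 of 18 alternative settings, among them those without MKP5-/- replicate 1 or 2 or WT 24 h replicate 2 or 3. Its WT groups overlapped (log2 difference -0.03, adjusted p = 0.7). Hexa, the alpha subunit of beta-hexosaminidase, rose in WT cells at 24 h (log2 difference 0.31, SE 0.061, adjusted p = 0.00127), and so did Gusb, beta-glucuronidase, by less (log2 difference 0.13, SE 0.047, adjusted p = 0.0395). Naglu, which trims heparan sulfate, had 53.1, 56.3 and 55.8 RPKM in MKP5-/- cells, 56.3, 55.7 and 54.3 in WT cells at 24 h and 59.9, 64.1 and 59.6 in WT cells at 0 h. It was lower at 24 h in WT cells (log2 difference -0.14, SE 0.047, adjusted p = 0.0229) and nearly level between the genotypes (-0.01, adjusted p = 0.89). The Gusb and Naglu calls were lost in 8 and 4 of the 18 alternative settings. Gaa, which degrades glycogen, averaged 26.2 ± 1.60 RPKM in MKP5-/- cells, 27.6 ± 3.59 in WT cells at 24 h and 25.4 ± 0.954 in WT cells at 0 h and passed the test in neither comparison. Hexa averaged 481 ± 32.2 RPKM in MKP5-/- cells, 475 ± 32.4 in WT cells at 24 h and 384 ± 15.9 in WT cells at 0 h, Gusb 152 ± 7.14 RPKM in MKP5-/- cells, 146 ± 4.51 in WT cells at 24 h and 134 ± 3.40 in WT cells at 0 h (SD, n = 3 each). The 24 h groups overlapped each other for Gaa, Hexa and Gusb alike.

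Membrane protein genes were 5 lower and 0 higher of 8 in MKP5-/- against WT cells at 24 h, where 17% of all tested genes were lower and 11.8% higher. Scarb2, an integral membrane protein that serves as a receptor for enzyme delivery to lysosomes, had 21.8, 23.9 and 24.9 RPKM in MKP5-/- cells, 32.9, 33.7 and 41.5 in WT cells at 24 h and 20.7, 23.0 and 22.5 in WT cells at 0 h. WT cells at 24 h lay above both other groups, which overlapped each other. Scarb2 was 1.53-fold lower in MKP5-/- than in WT cells at 24 h (log2 difference -0.61, SE 0.088, adjusted p = 0.000666) and 1.63-fold higher in WT cells at 24 h than at 0 h (log2 difference 0.70, SE 0.088, adjusted p = 4.24e-05). Laptm5, a lysosomal membrane protein of blood cells, had 447, 467 and 472 RPKM in MKP5-/- cells, 506, 538 and 562 in WT cells at 24 h and 312, 313 and 322 in WT cells at 0 h. Its groups did not overlap. Laptm5 was 1.16-fold lower in MKP5-/- than in WT cells at 24 h (log2 difference -0.21, SE 0.045, adjusted p = 0.00632) and 1.69-fold higher in WT cells at 24 h than at 0 h (log2 difference 0.76, SE 0.045, adjusted p = 1.09e-07). Its relative Laptm4a was also lower in MKP5-/- cells (log2 difference -0.27, SE 0.058, adjusted p = 0.00627) and higher at 24 h in WT cells (log2 difference 0.55, SE 0.058, adjusted p = 9.06e-06).

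Lamp1 and Lamp2 encode the most abundant glycoproteins of the lysosomal membrane. Lamp1 had 434, 492 and 518 RPKM in MKP5-/- cells, 532, 556 and 629 in WT cells at 24 h and 587, 602 and 595 in WT cells at 0 h. MKP5-/- cells lay below both WT groups, which overlapped. Lamp1 was 1.19-fold lower in MKP5-/- than in WT cells at 24 h (log2 difference -0.25, SE 0.071, adjusted p = 0.0239) and among the least changed over time in WT cells (-0.06, adjusted p = 0.522). Lamp2 averaged 56.7 ± 4.29 RPKM in MKP5-/- cells, 66.1 ± 3.82 in WT cells at 24 h and 71.5 ± 3.43 in WT cells at 0 h (SD, n = 3 each), and was also lower in MKP5-/- cells (log2 difference -0.22, SE 0.066, adjusted p = 0.0268). Both calls were lost with upper-quartile scaling, with the trend and robust options off, without MKP5-/- replicate 1 and without WT 24 h replicate 3, and the group was 0 higher and 3 lower of 8 in each of these settings. The Lamp1 call was also lost with the 2 genotype groups fitted alone. Mcoln1, the cation channel that releases lysosomal calcium, had 8.25, 8.59 and 8.38 RPKM in MKP5-/- cells, 8.21, 8.94 and 8.34 in WT cells at 24 h and 9.53, 9.24 and 9.90 in WT cells at 0 h. The genotypes overlapped and Mcoln1 was among the least changed between them (-0.01, adjusted p = 0.878), while it was lower in WT cells at 24 h than at 0 h (log2 difference -0.17, SE 0.061, adjusted p = 0.0349), a call lost in 6 of 18 settings. Grn, which encodes progranulin, fell at 24 h in WT cells (log2 difference -0.33, SE 0.048, adjusted p = 0.00014). Cln3, the membrane protein lost in juvenile Batten disease, averaged 11.3 ± 0.296 RPKM in MKP5-/- cells, 12.4 ± 0.430 in WT cells at 24 h and 13.3 ± 0.368 in WT cells at 0 h (SD, n = 3 each) and passed the test in neither of these comparisons. Grn averaged 668 ± 34.9 RPKM in MKP5-/- cells, 689.6 ± 26.0 in WT cells at 24 h and 864 ± 29.0 in WT cells at 0 h, so that only the time difference was larger than the spread between libraries. Laptm4a averaged 152 ± 7.04 RPKM in MKP5-/- cells, 183 ± 12.4 in WT cells at 24 h and 125 ± 5.15 in WT cells at 0 h.

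**Figure D4:**
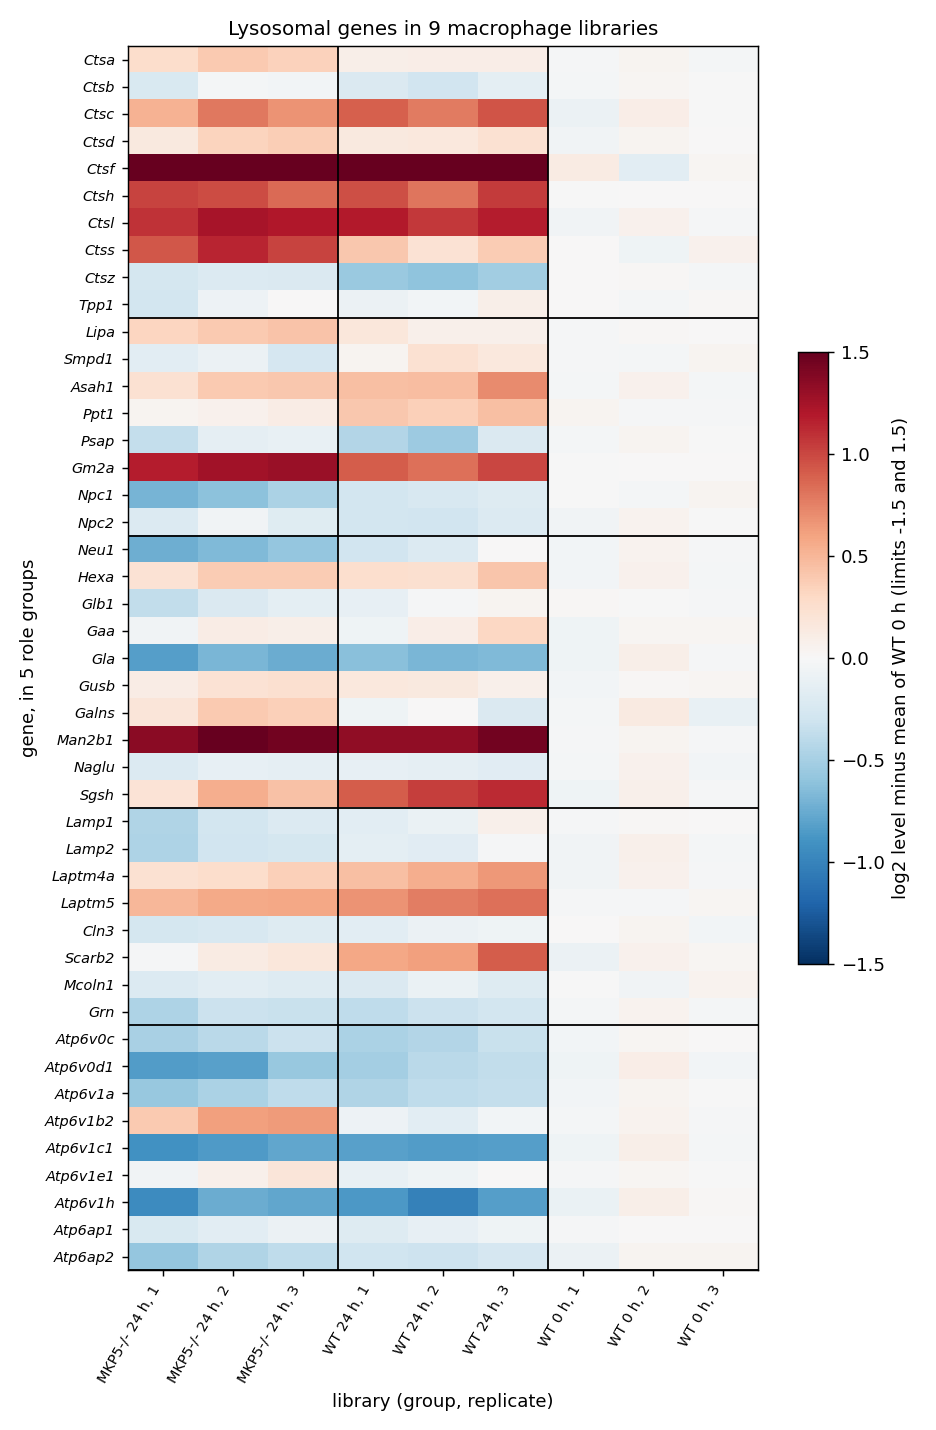
Log2 level of the 45 lysosomal genes in each of 9 libraries minus the mean of WT cells at 0 h, in 5 role groups from proteases (top) to proton pump (bottom); colours end at -1.5 and 1.5, which Ctsf passes. The 7 pump genes called lower at 24 h are blue in all 6 libraries at 24 h, and the first MKP5-/- column holds the lowest MKP5-/- value for 43 of the 45 genes.

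Of the 9 pump genes, 7 fell in WT cells at 24 h against 0 h and 0 rose, and Atp6v1b2 and Atp6v1e1 did not pass the test. Among all tested genes 28.2% were lower and 27.5% higher in that comparison. The count of pump genes was 6 or 7 lower and 0 higher in all 18 alternative settings. Atp6v1c1, the subunit that joins the cytosolic and membrane parts of the pump, had 24.6, 25.4 and 26.8 RPKM in MKP5-/- cells, 26.2, 25.8 and 26.1 in WT cells at 24 h and 44.2, 48.9 and 45.1 in WT cells at 0 h. It was 1.77-fold lower in WT cells at 24 h than at 0 h (log2 difference -0.82, SE 0.054, adjusted p = 2.3e-07). Atp6v1h, a regulatory subunit, was 1.87-fold lower, 7.04 ± 0.471 against 13.1 ± 0.872 RPKM (SD, n = 3 each; log2 difference -0.90, SE 0.081, adjusted p = 2.7e-06). Atp6v0c, the subunit of the proton-carrying ring, had 164, 174 and 184 RPKM in MKP5-/- cells, 164, 169 and 182 in WT cells at 24 h and 224, 234 and 229 in WT cells at 0 h. It was 1.33-fold lower in WT cells at 24 h (log2 difference -0.42, SE 0.053, adjusted p = 4.82e-05) and among the least changed between the genotypes (0.02, adjusted p = 0.825). Atp6v1a, the catalytic subunit, fell at 24 h too (log2 difference -0.39, SE 0.052, adjusted p = 6.52e-05), as did Atp6v0d1, which links the central stalk to the ring (log2 difference -0.43, SE 0.075, adjusted p = 0.000496). The accessory proteins Atp6ap1 and Atp6ap2 fell by less (-0.13, adjusted p = 0.0473 and -0.29, adjusted p = 0.0012), and the Atp6ap1 call was lost in 9 of 18 settings. Atp6v1e1, of the outer stalk, had 28.7, 31.4 and 33.7 RPKM in MKP5-/- cells, 27.5, 28.6 and 29.8 in WT cells at 24 h and 29.3, 30.5 and 29.5 in WT cells at 0 h, and its groups overlapped (-0.06, adjusted p = 0.47). Atp6v1a averaged 113 ± 7.21 RPKM in MKP5-/- cells, 119 ± 3.94 in WT cells at 24 h and 156 ± 4.38 in WT cells at 0 h (SD, n = 3 each). Atp6ap1 averaged 119 ± 6.21 RPKM in MKP5-/- cells, 122 ± 5.18 in WT cells at 24 h and 133 ± 1.30 in WT cells at 0 h, and Atp6ap2 67.1 ± 4.59 RPKM in MKP5-/- cells, 76.1 ± 1.57 in WT cells at 24 h and 92.9 ± 4.53 in WT cells at 0 h. For these 3 genes all WT libraries at 24 h lay below all WT libraries at 0 h.

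Between the genotypes 1 of the 9 pump genes was called higher in MKP5-/- cells and 2 lower; Atp6v1e1 was called higher as well with upper-quartile and relative log expression scaling and without MKP5-/- replicate 1. Atp6v1b2, a subunit of the cytosolic ring that binds ATP, had 105, 123 and 125 RPKM in MKP5-/- cells, 76.4, 71.8 and 77.8 in WT cells at 24 h and 78.6, 83.0 and 79.4 in WT cells at 0 h. The MKP5-/- libraries were above all WT libraries, and Atp6v1b2 was 1.56-fold higher in MKP5-/- than in WT cells at 24 h (log2 difference 0.64, SE 0.065, adjusted p = 7.97e-05). Atp6v0d1 was 1.24-fold lower, 59.0 ± 6.23 against 72.8 ± 3.72 RPKM (SD, n = 3 each; log2 difference -0.31, SE 0.075, adjusted p = 0.0119). Atp6ap2 was called lower (log2 difference -0.18, SE 0.057, adjusted p = 0.0346), a call lost in 10 of 18 settings. Of 11 further pump genes tested, 3 were higher and 1 lower in MKP5-/- than in WT cells at 24 h, and 2 were higher and 6 lower in WT cells at 24 h than at 0 h. Shares over all tested genes were 11.8% higher and 17% lower between the genotypes, and 27.5% higher and 28.2% lower over time in WT cells. Atp6v0d2, the isoform of Atp6v0d1 found in osteoclasts and macrophages, had 83.6, 116 and 115 RPKM in MKP5-/- cells, 55.8, 38.2 and 43.9 in WT cells at 24 h and 4.89, 5.73 and 4.93 in WT cells at 0 h. It was 2.29-fold higher in MKP5-/- than in WT cells at 24 h (log2 difference 1.19, SE 0.152, adjusted p = 0.000388) and 8.78-fold higher in WT cells at 24 h than at 0 h (log2 difference 3.13, SE 0.152, adjusted p = 4.75e-08). The ratio of Atp6v0d2 to Atp6v0d1 in RPKM was 1.52, 2.08 and 1.74 in MKP5-/- cells, 0.812, 0.516 and 0.579 in WT cells at 24 h and 0.0521, 0.0545 and 0.0517 in WT cells at 0 h. The more abundant isoform was thus Atp6v0d2 in every MKP5-/- library and Atp6v0d1 in every WT library. Atp6v0a1, an isoform of the membrane subunit through which protons pass, was 1.61-fold higher in MKP5-/- cells (log2 difference 0.69, SE 0.054, adjusted p = 1.52e-05). Another isoform of it, Tcirg1, was 1.89-fold lower in WT cells at 24 h than at 0 h (log2 difference -0.92, SE 0.046, adjusted p = 3.17e-08). The summed level of 8 osteoclast markers, given above, also differed between the groups, and its part in these values was not tested.

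**Figure D5:**
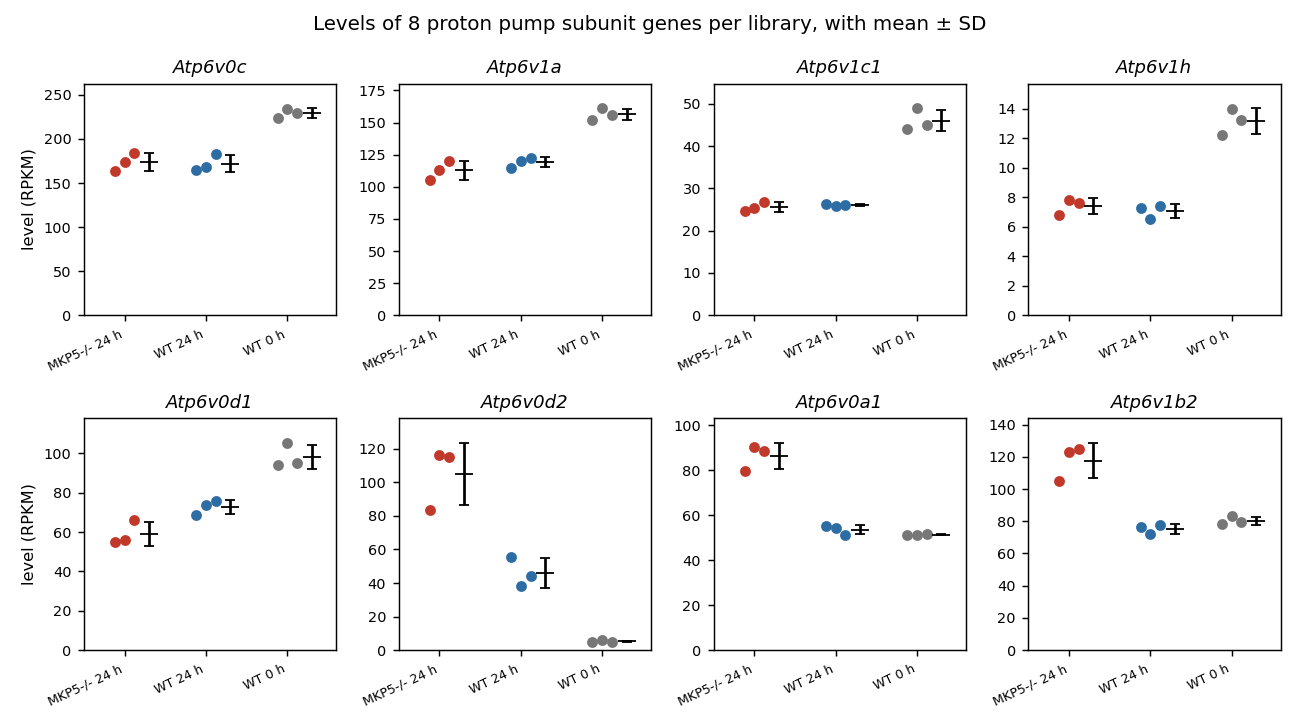
Level in RPKM of 8 proton pump subunit genes in each library, with the mean and SD of 3 libraries beside the points, for MKP5-/- 24 h, WT 24 h and WT 0 h. Atp6v0c, Atp6v1a, Atp6v1c1 and Atp6v1h are lower in both 24 h groups than at 0 h, while Atp6v0d2, Atp6v0a1 and Atp6v1b2 are highest in MKP5-/- cells.

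MKP5-/- cells at 24 h set against WT cells at 0 h join genotype, ox-LDL and time, and share libraries with both other comparisons. Of the 45 genes, 18 were higher, 19 lower and 8 not called, where 56.5% of all tested genes were called, 25% higher and 31.4% lower. The groups were fully apart for 40 of the 45 genes, against 63.5% of all tested genes. Ctsl, Man2b1, Gm2a and Ctsf differed by log2 differences of 1.17, 1.44, 1.24 and 2.54, and Ctss by 1.03. Scarb2 and Ppt1, which were higher in WT cells at 24 h than at 0 h, did not pass the test here (0.09, adjusted p = 0.392 for Scarb2 and 0.07, adjusted p = 0.238 for Ppt1). With upper-quartile scaling both were called higher, and Ppt1 also with relative log expression scaling. Neu1 and Npc1 were 1.58-fold and 1.51-fold lower in MKP5-/- cells than in WT cells at 0 h. Upper-quartile scaling shifted the median of all genes by 0.13 on the log2 scale in this comparison, and the 45 genes were then read as 21 higher and 13 lower.

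Genes that act with the 45 were described from 8 lists. The counts of each list stand beside the shares of all tested genes. These were 11.8% higher and 17% lower between the genotypes at 24 h, and 27.5% higher and 28.2% lower between 24 h and 0 h in WT cells. The list counts were not repeated under the alternative scalings or other settings. Of 18 MiT/TFE factors and genes of their nutrient control, 5 were higher and 7 lower in MKP5-/- than in WT cells at 24 h, and 8 higher and 5 lower in WT cells at 24 h than at 0 h. Tfeb and Mitf, whose factors activate lysosomal genes, had their highest levels in MKP5-/- cells. Tfeb averaged 13.8 ± 0.337 RPKM in MKP5-/- cells, 10.2 ± 0.118 in WT cells at 24 h and 6.36 ± 0.226 in WT cells at 0 h, and Mitf 22.6 ± 1.34, 15.7 ± 0.463 and 8.32 ± 0.360 RPKM in the same groups (SD, n = 3 each). Both were higher in MKP5-/- than in WT cells at 24 h (0.43, adjusted p = 0.000396 for Tfeb and 0.52, adjusted p = 0.00021 for Mitf, as log2 differences) and in WT cells at 24 h than at 0 h (0.69, adjusted p = 1.4e-06 and 0.92, adjusted p = 2.88e-07). Tfec, a family member found mainly in macrophages, was 2.01-fold lower in MKP5-/- than in WT cells at 24 h (log2 difference -1.01, SE 0.152, adjusted p = 0.000874), and Fnip1, a partner of folliculin, was lower too (log2 difference -0.52, SE 0.073, adjusted p = 0.000511). At 24 h in WT cells Flcn, which encodes folliculin, was higher (0.66, adjusted p = 4.11e-05) and Rraga, a GTPase that recruits mTORC1 to lysosomes, was 1.95-fold lower (log2 difference -0.96, SE 0.051, adjusted p = 4.71e-08). Among the 45 genes, those with a CACGTG core in a promoter window (14 genes) were 4 higher and 5 lower at 24 h in WT cells. Those with a window but no core (23 genes) were 10 higher and 7 lower, and those with no window (8 genes) 2 and 4. Of all tested genes 27.5% were higher and 28.2% lower. Between the genotypes the counts were 1 higher and 4 lower with the core, 4 and 8 without it, and 2 and 1 with no window. Of all tested genes 11.8% were higher and 17% lower there. Whether the core bears on these counts was not tested.

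Of 13 genes that sort enzymes to lysosomes, 0 were higher and 4 lower in MKP5-/- than in WT cells at 24 h, and 5 were higher and 4 lower in WT cells at 24 h than at 0 h. Sort1, a sorting receptor that carries prosaposin and other cargo, averaged 11.3 ± 0.492 RPKM in MKP5-/- cells, 18.0 ± 1.75 in WT cells at 24 h and 6.20 ± 0.222 in WT cells at 0 h (SD, n = 3 each). It was 1.59-fold lower in MKP5-/- than in WT cells at 24 h (log2 difference -0.67, SE 0.076, adjusted p = 0.000154) and 2.9-fold higher in WT cells at 24 h than at 0 h (log2 difference 1.54, SE 0.076, adjusted p = 2.99e-08). Ap1g1, Ap1m1 and Ap1b1, of the clathrin adaptor at the trans-Golgi, were lower in MKP5-/- cells by log2 differences of -0.20, -0.24 and -0.22. Igf2r, the cation-independent mannose phosphate receptor, rose at 24 h in WT cells (log2 difference 0.96, SE 0.080, adjusted p = 1.47e-06), and Gnptab, which builds the mannose phosphate tag, fell (log2 difference -0.75, SE 0.068, adjusted p = 3e-06).

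The protease inhibitors of the cystatin family had 3 tested genes of 7. Cstb, an inhibitor of the cytosol, averaged 325 ± 17.8 RPKM in MKP5-/- cells, 242 ± 1.83 in WT cells at 24 h and 383 ± 13.6 in WT cells at 0 h, and Cst3, the secreted cystatin C, 591 ± 17.3, 474 ± 7.90 and 378 ± 10.3 RPKM in the same groups (SD, n = 3 each). Both were higher in MKP5-/- than in WT cells at 24 h (0.43, adjusted p = 0.00013 for Cstb and 0.32, adjusted p = 0.000253 for Cst3, as log2 differences). Cst7, cystatin F, was lower in WT cells at 24 h than at 0 h, 0.274 ± 0.0180 against 9.39 ± 0.0401 RPKM (log2 difference -5.10, SE 0.526, adjusted p = 1.22e-05). Of 8 other lysosomal proteases tested, 2 were higher and 1 lower in MKP5-/- than in WT cells at 24 h, and 2 higher and 4 lower in WT cells at 24 h than at 0 h. Dpp7, a dipeptidyl peptidase, was higher in MKP5-/- cells (0.46, adjusted p = 0.000101) and Scpep1, a carboxypeptidase, lower (-0.26, adjusted p = 0.0128). Ctsg, a granule protease of neutrophils, fell at 24 h in WT cells (-5.36, adjusted p = 4.07e-06), as the neutrophil markers given above did.

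Among 16 other glycosidases and sulfatases, 1 was higher and 4 lower in MKP5-/- than in WT cells at 24 h, and 8 higher and 5 lower in WT cells at 24 h than at 0 h. The largest rise was in Hgsnat, the membrane enzyme that acetylates heparan sulfate in the pathway of Sgsh and Naglu. It had 342, 380.5 and 424 RPKM in MKP5-/- cells, 339, 358 and 339 in WT cells at 24 h and 46.4, 49.3 and 46.2 in WT cells at 0 h, and was 7.3-fold higher in WT cells at 24 h than at 0 h (log2 difference 2.87, SE 0.069, adjusted p = 2.93e-10). Galc, which degrades galactosylceramide, rose at 24 h in WT cells (1.32, adjusted p = 2.25e-07) and was lower in MKP5-/- than in WT cells at 24 h (-0.35, adjusted p = 0.0129). Of 11 other lipases, nucleases and phosphatases, 4 were higher and 1 lower in MKP5-/- than in WT cells at 24 h, and 6 higher and 1 lower in WT cells at 24 h than at 0 h. Acp5, tartrate-resistant acid phosphatase and itself an osteoclast marker, was 3.73-fold higher in MKP5-/- than in WT cells at 24 h (log2 difference 1.90, SE 0.262, adjusted p = 0.000618), and Pld3 was higher (0.56, adjusted p = 0.00012). Pla2g15, a lysosomal phospholipase, was 2.9-fold higher in WT cells at 24 h than at 0 h (log2 difference 1.54, SE 0.076, adjusted p = 2.94e-08).

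Of 22 other lysosomal membrane proteins and transporters tested, 5 were higher and 7 lower in MKP5-/- than in WT cells at 24 h, and 9 higher and 9 lower in WT cells at 24 h than at 0 h. Slc15a3, a transporter of histidine and small peptides, had 59.0, 64.5 and 62.7 RPKM in MKP5-/- cells, 35.6, 30.0 and 30.7 in WT cells at 24 h and 44.8, 49.9 and 46.5 in WT cells at 0 h. It was highest in MKP5-/- cells and lowest in WT cells at 24 h, 1.94-fold higher in the MKP5-/- group (log2 difference 0.96, SE 0.070, adjusted p = 1.08e-05). Tpcn2 and Tpcn1 encode cation channels of endosomes and lysosomes. Tpcn2 was higher in MKP5-/- than in WT cells at 24 h (0.60, adjusted p = 0.000257), and Tpcn1 was higher in WT cells at 24 h than at 0 h (1.29, adjusted p = 3.42e-09). Cd164, a sialomucin, was lower in MKP5-/- cells (-0.46, adjusted p = 0.000192). Clcn7, the chloride and proton exchanger, fell at 24 h in WT cells (-1.08, adjusted p = 1.47e-07).

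Within groups, the spread between libraries over the lysosomal genes was below that over all tested genes, many of which have fewer reads. The median coefficient of variation was 6.09% in MKP5-/- cells, 5.11% in WT cells at 24 h and 3.16% in WT cells at 0 h, against 9.54, 8.78 and 7.42% over all tested genes. The widest was 24.9% for Ctsf in WT cells at 24 h. Many of these genes shifted together within a library. MKP5-/- replicate 1 was the lowest of its group for 43 genes, with a median of -0.09 on the log2 scale from the group mean, where all tested genes had -0.04. WT 24 h replicate 3 was the highest of its group for 34 genes, with a median of 0.06 against 0.02 over all tested genes, and WT 0 h replicate 2 the highest for 34. MKP5-/- replicate 1 also stood apart from the other MKP5-/- libraries on the third principal component of all tested genes.

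Some values carry reads that another gene could share, since the use of strand in counting is not given in the sources used here. In the GENCODE M21 annotation 15 of the 45 genes overlap exons of another gene, 6 of them by 10% or more of their exon length: Ctsa with Pltp by 10.5%, Ctsb with Fdft1 by 12.8%, Ctsd with Gm49369 by 34.4%, Ctsl with Gm47123 by 26.8%, Hexa with Tmem202 by 12.8% and Sgsh with Card14 by 21.6%. Gm47123 had no reads in any library, Gm49369 had 0 to 4 and Card14 0 to 8. Pltp had 4842 to 9270 reads, where Ctsa had 14570 to 21421. Fdft1 had 174 to 990, where Ctsb had 137332 to 238364, and Tmem202 had 6 to 45, where Hexa had 12162 to 23094. The part of shared reads in the calls of these genes was not tested. The neighbour had more reads than the lysosomal gene in every library for 2 of the 45: Cap1, with 11396 to 18164 reads, overlaps Ppt1, with 1370 to 3009, by 3.5% of its exon length, and Apobr, with 2828 to 4434 reads, overlaps Cln3, with 878 to 1657, by 7.6%. Atp6v0c has the pseudogenes Atp6v0c-ps1 and Atp6v0c-ps2, the second with 142 to 327 reads per library.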

How the data were processed

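The 9 tables held 1 value per gene for 56775 genes: the deposited log2 values are, per the file headers, normalized counts on a log2 scale after TMM scaling of each library. Genotype and hours in the headers matched the labels in 9 of 9 libraries. Reads were aligned with STAR to GRCm39, per the submitters' processing notes; the annotation, the counting tool and its use of strand were not given in the sources used here. Total RNA, 1 µg per sample, was used, per the labels' protocols.

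Turned back into reads with exon lengths of GENCODE M21, 92.3% of the 14182 genes under 100 reads in which this could be checked came out whole (tolerance 0.02 reads), so the values are log2 of reads plus 0.5, per kilobase and per unit of scaled library size. RPKM values printed are 2 to the power of the deposited value, as mean ± SD, and folds are on that scale, where the changes of genes with few reads come out too small. Depth was 11139776 to 19875773 reads. The test took the 14704 genes that, scaled to the median depth, reached 10 reads in 3 or more libraries and 15 over all of them, in 1 fit over all 9 libraries (limma 3.58.1 with trend and robust options, R 4.3.3, statmod 1.5.0; two-sided, Benjamini-Hochberg adjusted p under 0.05). On simulated data genes changed by 1.25, 1.5 and 2 times were called at rates of 28%, 60% and 90% between MKP5-/- and WT at 24 h, with 9 of 14504 unchanged genes called, and 16%, 62% and 90% between 24 h and 0 h in WT. Simulated libraries had few changed genes, unlike the data.

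Members, gene lists and tests were chosen with earlier results of these data known. Members given library by library were, per comparison, the 10 called with the smallest adjusted p and the 4 least changed; of each other list up to 4 called genes with the smallest adjusted p were eligible, and Atp6v0d2, Atp6v0a1, Hgsnat and Slc15a3 among them were given library by library after their values were seen. Replicate numbers were not used to pair the libraries in the main fit. Every pair of libraries of a group differed by more than sampling noise. Alternatives were other scalings, filters, offsets and fits, and leaving out each library. Promoter windows are from RefSeq; scripts ran in Python 3.11.15 with pandas 2.3.3, numpy 2.4.6 and matplotlib 3.10.9. Some genes of the further lists are not reported here by name, though the lists' counts include them.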

Additional observations from a re-analysis of the deposited data

How the results depend on the processing

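Over 18 alternative settings, 27 of the 32 lysosomal genes called between 24 h and 0 h in WT cells passed the test in all, as did 16 of the 20 called between MKP5-/- and WT cells at 24 h and 31 of the 37 called between MKP5-/- cells and WT cells at 0 h. No called lysosomal gene turned its direction. Calls lost in at least 1 setting were Atp6ap2, Glb1, Lamp1 and Lamp2 for the genotype and Ctsd, Gusb, Naglu, Mcoln1 and Atp6ap1 for 24 h against 0 h in WT cells. Of the 25 genes not called between the genotypes, 9 passed in at least 1 setting: Psap in 4, Ctsb, Ctsd, Ctsc and Atp6v1e1 in 3 each, Asah1 and Npc2 in 2 each, and Gusb and Man2b1 in 1 each. In each of the other comparisons 5 uncalled genes did so. Between the genotypes, 7 lysosomal genes were higher, 14 with upper-quartile and 12 with relative log expression scaling, and 7 to 11 when 1 library was left out, with 11 without MKP5-/- replicate 1. All genes called lower numbered 2496 in that comparison, 1579 with upper-quartile scaling and 1660 to 2414 when 1 library was left out, with 1660 without WT 24 h replicate 2. The upper-quartile factors shift the median of all genes by 0.09 in that comparison; the cause of the change from leaving out a library was not tested.

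Genes near 0 that were not called turned sign in some settings, as log2 differences. With upper-quartile scaling these were Tpp1 at 0.02304 and Glb1 at 0.007476 between 24 h and 0 h in WT cells, and Ctsb at 0.03301 and Tpp1 at 0.01228 between MKP5-/- cells and WT cells at 0 h. Between the genotypes the same scaling gave Gaa 0.02404, Naglu 0.079, Mcoln1 0.07454, Grn 0.04304, Atp6v1a 0.008004, Atp6v1c1 0.0644 and Atp6ap1 0.05897. Relative log expression scaling gave Naglu 0.03745, Mcoln1 0.03299, Grn 0.001488, Atp6v1c1 0.02285 and Atp6ap1 0.01742. When 1 library was left out, the range between 24 h and 0 h in WT cells was -0.06695 to 0.01965 for Tpp1 and -0.06795 to 0.0125 for Glb1. Between the genotypes it was -0.0611 to 0.0615 for Ctsh, -0.01202 to 0.07463 for Ctsl, -0.01207 to 0.0755 for Hexa, -0.155 to 0.03148 for Gaa and -0.02673 to 0.01642 for Naglu. It was -0.03878 to 0.02272 for Mcoln1, -0.02315 to 0.06182 for Atp6v0c, -0.05798 to 0.004467 for Atp6v1c1 and -0.0669 to 0.00835 for Atp6ap1.

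With the replicate number as a block, 7 lysosomal genes were higher and 14 lower between the genotypes, 16 higher and 17 lower between 24 h and 0 h in WT cells, and 18 higher and 20 lower between MKP5-/- cells and WT cells at 0 h. Libraries with the same number correlated between -0.02 and 0.20 in their deviations from the group means. Those with different numbers correlated between -0.17 and 0.12, and not every library correlated best with its own number. The labels do not say whether a number marks a shared animal or day, and these correlations cannot decide it. Precision weights (voom) were an alternative chosen after seeing the data. They were set per gene and library from the trend of spread with read count. Depth was lower in the MKP5-/- libraries than in all WT libraries; its part in the genotype calls was not tested.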
